A study of Mus musculus with 6 samples.

Results

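The 8 mature arms of 4 microRNA hairpins, miR-191, miR-425, miR-22 and miR-185, were followed in fetal liver of mouse embryos with and without the miR-144/451 locus. They were taken by name from the deposited abundance table, because these microRNAs (miRNAs) have been reported to act in red cell maturation or enucleation; all 8 were among its 1626 listed miRNAs. Small RNA had been sequenced from C57BL/6J fetal liver, in 3 wild-type (WT) libraries numbered 1 to 3 and 3 libraries of the genotype miR-144/451-/- (KO) numbered 4 to 6, each from 5000000 cells. No label states the embryonic day, and nothing says whether the 3 libraries of a genotype came from separate embryos, so p-values rest on the spread of these libraries alone, part of which may be technical. The genotype label gives a homozygous loss with no tissue-specific driver, and fetal liver is a mixed tissue; in RNA of the whole tissue, fewer cells of a type and fewer copies per cell cannot be told apart.

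A miRNA is cut from a hairpin precursor as a duplex, of which the 5p or the 3p strand is usually loaded into Argonaute and the opposite strand is mostly degraded. The loaded strand pairs with messenger RNAs mainly through its seed, bases 2 to 8. During red cell maturation the erythroblast condenses and expels its nucleus while most of its transcripts decline. miR-191 declines as mouse erythroblasts mature and, when its expression is forced, blocks their enucleation; miR-425 comes from the same cluster. miR-22 has been linked to blood stem cell self-renewal through Tet2 and to erythroid maturation, and miR-185 is an intronic miRNA of the Tango2 gene.

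The mature sequences are shown so that the seeds can be compared, with bases 2 to 8 in capitals, from RefSeq on build GRCm38.p6; 7 of the 8 names matched, all but miR-185-5p.
mmu-miR-191-5p: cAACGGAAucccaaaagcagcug
mmu-miR-191-3p: gCUGCACUuggauuucguuccc
mmu-miR-425-5p: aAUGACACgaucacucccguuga
mmu-miR-425-3p: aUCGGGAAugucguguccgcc
mmu-miR-22-5p: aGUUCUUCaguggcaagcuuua
mmu-miR-22-3p: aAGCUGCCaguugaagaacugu
mmu-miR-185-3p: aGGGGCUGgcuuuccucuggu
The 7 seeds were all different, and 0 of them was the seed of miR-451a, miR-144-3p or miR-144-5p, the miRNAs of the deleted locus. Of the other miRNAs in the RefSeq table, miR-489-3p had the seed of miR-425-5p and miR-7048-5p that of miR-185-3p, with 2 and 7 counts in total over the 6 libraries. RefSeq mature sequences matched 1376 of the 1626 listed names, and the seeds of the others were not compared.

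In GRCm38 with GENCODE M21, Mir191 lies on the plus strand of chromosome 9 at 108568319 to 108568392 and Mir425 at 108568777 to 108568861, with 384 bases between the hairpins. Both lie in the long noncoding RNA gene 4833445I07Rik, where Mir425 overlaps an exon of its 1 transcript there and Mir191 an exon of 1 of 2 transcripts. Mir425 ends 1024 bases before the start of the protein-coding gene Dalrd3. A further miRNA gene model, Gm24083, covers Mir191 on the opposite strand. Mir22 lies on the plus strand of chromosome 11 at 75463716 to 75463810, in an exon of its noncoding host Mir22hg and of 1 transcript of Tlcd2, 2.61 Mb from Mir144. It was the only one of the 4 hairpins on the chromosome of the deleted locus. Mir185 lies on the minus strand of chromosome 16 at 18327401 to 18327465, within introns of all 10 Tango2 transcripts that span it.

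Libraries held 20741632 to 27089133 miRNA counts in WT and 16243894 to 24039486 in KO, and 1258 to 1345 miRNAs had a count in each. The deleted locus took 20.6% ± 3.29 of counts in WT and 0.0226% ± 0.000985 in KO (SD, n = 3 each), so levels are given as TMM-scaled counts per 1000000 counts (CPM), a scaling that sets the typical miRNA level between libraries. The hepatocyte markers miR-122-5p, miR-122-3p, miR-192-5p, miR-194-5p and miR-802-5p had summed levels of 34270 to 133080 CPM in WT and 42683 to 103310 CPM in KO. All 5 were counted in every library, as were the erythroid marker miR-486a-5p, at 43832 to 82223 CPM in WT and 49709 to 69771 CPM in KO, and the pan-haematopoietic markers miR-142a-3p and miR-142a-5p, with summed levels of 28584 to 34104 CPM in WT and 25848 to 38757 CPM in KO. Muscle markers (miR-1a-3p, miR-133a-3p and miR-206-3p) summed to 400.3 CPM in WT library 1 and 83.5 CPM in KO library 4, against 13.3 to 20.5 CPM in the other 4 libraries. Like the hepatocyte and pan-haematopoietic markers, the myeloid, lymphoid, mesenchymal, and endothelial and megakaryocyte markers overlapped between the genotypes. The myeloid miR-223-3p and miR-223-5p summed to 15698 to 20736 CPM in WT and 8883 to 16311 CPM in KO.

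None of the 8 arms passed the test between KO and WT (edgeR quasi-likelihood test, Benjamini-Hochberg adjusted over 876 tested miRNAs, adjusted p under 0.05); outside the locus 0.458% of tested miRNAs were called. In this fit there were 2 of the 8 at an unadjusted p under 0.05, both arms of miR-185 and both with the higher level in KO. Of the 873 miRNAs tested outside the locus 11% had such a p. DESeq2 and limma-voom also called 0 of the 8. The 8 arms together made up 0.732% ± 0.0614 of all counts in WT and 0.997% ± 0.0768 in KO, and 0.921% ± 0.0490 and 0.997% ± 0.0768 of the counts outside the locus (SD, n = 3 each). Of the 8 log2 folds of KO over WT, 4 were above and 4 below 0, with a median of -0.02, where the 873 tested miRNAs outside the locus had a median of -0.01, 416 above and 457 below. All 8 arms passed the filter on low counts. With no scaling factor all 8 were above 0, as were 733 of 873 miRNAs, and the median of the 873 was 0.34; the loss of the locus alone leaves a larger share for everything else, so folds were read relative to that median.

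**Figure D1:**
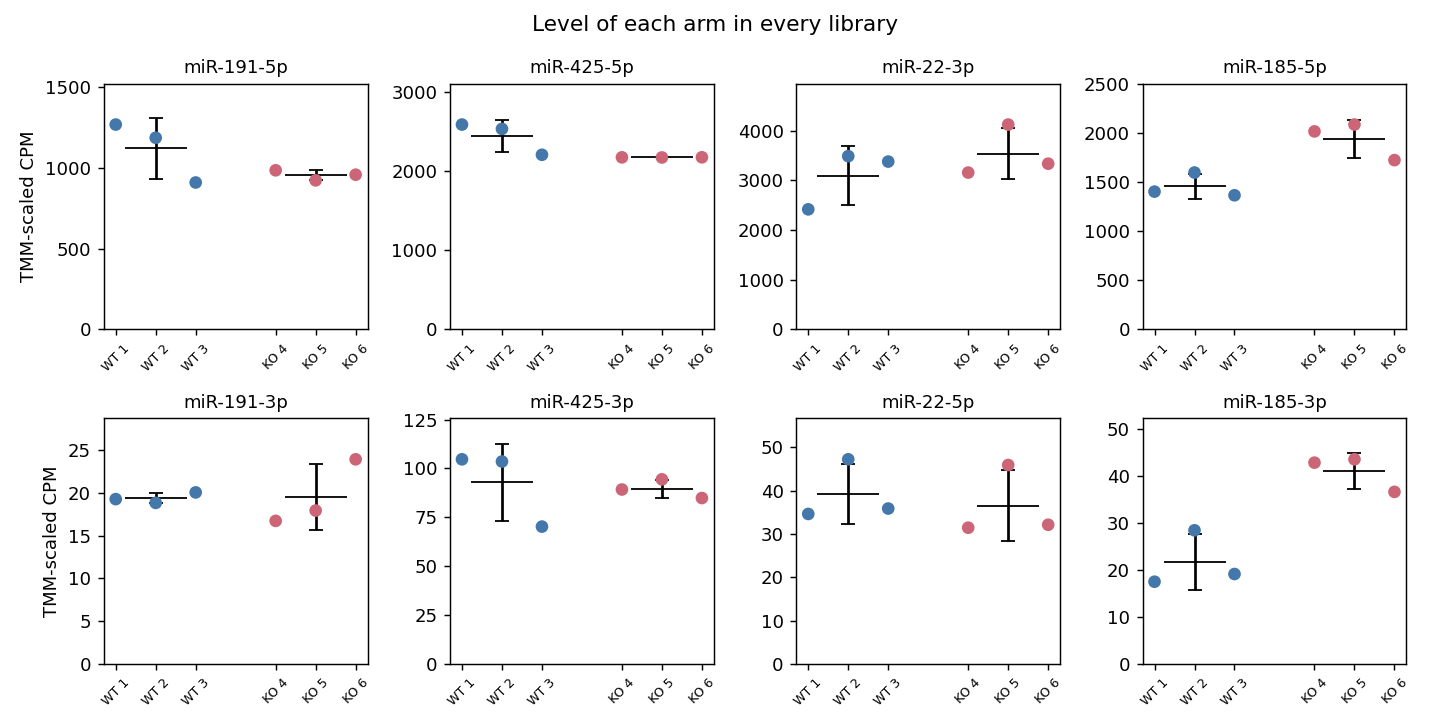
TMM-scaled CPM (linear axes from 0) of the 8 arms in each library; blue points are WT libraries 1 to 3, red points KO libraries 4 to 6, and black bars the mean and SD of each genotype. The 3 KO points of miR-185-5p and of miR-185-3p lie above the 3 WT points. Those of miR-425-5p lie within 3 CPM of each other, closer than its counting error of up to 0.504% per library.

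The main arms spanned a narrow range of abundance. Averaged over the 6 libraries, miR-22-3p ranked 55 of 876, miR-425-5p 66, miR-185-5p 80 and miR-191-5p 102, and the opposite arms ranked between 250 and 387. These are ranks of counts in small RNA libraries, where the efficiency of adapter ligation differs between sequences. miR-22-3p and miR-425-5p, neighbours in that order, overlapped in WT but not in KO. miR-425-5p, miR-185-5p and miR-191-5p did not overlap with each other in either genotype. Among the opposite arms, miR-22-5p and miR-185-3p overlapped in KO only, and miR-185-3p and miR-191-3p in WT only. The miRNAs next to the main arms in level were miR-24-3p above and miR-484 below miR-22-3p, miR-431-5p above and miR-27b-3p below miR-425-5p, miR-434-3p above and miR-130b-3p below miR-185-5p, and miR-23b-3p above and miR-106b-3p below miR-191-5p, and none of these 8 neighbours was called.

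The cluster of miR-191 and miR-425 stood slightly lower in KO for its 5p arms, within the error of the test. mmu-miR-191-5p, the arm studied in enucleation, had 1270, 1188 and 910.2 CPM in the WT libraries 1 to 3, against 986.0, 923.7 and 958.7 CPM in the KO libraries 4 to 6. WT libraries 1 and 2 were higher than all KO libraries, WT library 3 was the lowest of the 6, and the genotypes overlapped. The WT mean was 1123 ± 188.5 CPM and the KO mean 956.1 ± 31.2 CPM (SD, n = 3 each). The log2 fold was -0.23 (SE 0.17, 95% interval -0.63 to 0.16; edgeR adjusted p = 0.631). The interval spans a level in KO of 0.648 to 1.12 times that in WT.

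mmu-miR-425-5p, the more abundant partner in the cluster, had 2588, 2533 and 2206 CPM in the WT libraries 1 to 3, against 2173, 2172 and 2174 CPM in the KO libraries 4 to 6. All 3 KO values lay just below the lowest WT value, which was again that of library 3. Over all tested miRNAs outside the locus 21.5% had values that did not overlap in either direction. Most of these had KO above WT (15.9% of those tested), the direction opposite to that of miR-425-5p. The means were 2442 ± 206.7 and 2173 ± 1.08 CPM (SD, n = 3 each). The log2 fold was -0.17 (SE 0.12, 95% interval -0.46 to 0.13; edgeR adjusted p = 0.644). Among the 539 miRNAs averaging 100 counts or more it had the smallest spread between the KO libraries on the log2 scale. Counting alone gives an error of up to 0.504% per library, which is more than this spread. The closeness of the 3 KO values is therefore no measure of a steadier level in KO.

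The 2 5p arms kept a similar proportion in all 6 libraries. There were 2.04, 2.13 and 2.42 counts of miR-425-5p for each count of miR-191-5p in WT libraries 1 to 3, and 2.20, 2.35 and 2.27 in KO libraries 4 to 6. The ratio, which needs no scaling factor, averaged 2.20 ± 0.201 in WT and 2.27 ± 0.0737 in KO (SD, n = 3 each) and overlapped between the genotypes; the log2 change of miR-191-5p over miR-425-5p was -0.05 (exact two-sided permutation p = 0.5, over 20 assignments of the libraries, where the smallest possible p is 0.1). Over the 6 libraries the log2 ratio had an SD of 0.09, which ranked 7 when the SDs of miR-191-5p to each of 538 other miRNAs averaging 100 counts or more were sorted from the smallest.

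The opposite arms of the cluster were rare. mmu-miR-425-3p had 104.6, 103.5 and 70.2 CPM in the WT libraries 1 to 3, against 89.2, 94.4 and 84.8 CPM in the KO libraries 4 to 6, with a log2 fold of -0.05 (SE 0.21; edgeR adjusted p = 0.997). The KO values lay inside the WT range, and as for both 5p arms the lowest WT value was that of library 3. mmu-miR-191-3p, the rarest of the 8, had 19.3, 18.8 and 20.1 CPM in WT and 16.7, 17.9 and 23.9 CPM in KO, with a log2 fold of 0.01 (SE 0.21; edgeR adjusted p = 0.999). Its KO values surrounded the WT values. Its smallest count was 325, for which counting alone gives an error of 5.55%.

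mmu-miR-22-3p, the main arm of miR-22 and the most abundant of the 8, varied within each genotype by more than the genotype means differed. It had 2417, 3490 and 3380 CPM in the WT libraries 1 to 3, against 3158, 4127 and 3337 CPM in the KO libraries 4 to 6. WT library 1 was the lowest and KO library 5 the highest, with the other 4 libraries close together between them. The means were 3095 ± 590.4 and 3541 ± 515.2 CPM (SD, n = 3 each). The log2 fold was 0.19 (SE 0.19, 95% interval -0.26 to 0.64; edgeR adjusted p = 0.743). Without WT library 1 the log2 fold was 0.04, and without KO library 5 it was 0.05. mmu-miR-22-5p, its opposite arm, had 34.6, 47.3 and 35.9 CPM in WT and 31.5, 45.9 and 32.1 CPM in KO, with a log2 fold of -0.11 (SE 0.24; edgeR adjusted p = 0.959). It was highest in WT library 2 and KO library 5, and the genotypes overlapped.

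Both arms of miR-185 were higher in every KO library than in every WT library, although neither passed the test over all miRNAs; of the 873 tested outside the locus, 15.9% had KO values above the WT values without overlap. mmu-miR-185-5p, the main arm, had 1401, 1596 and 1364 CPM in the WT libraries 1 to 3, against 2014, 2084 and 1722 CPM in the KO libraries 4 to 6. The lowest KO value, that of library 6, lay above the highest WT value, that of library 2. The means were 1454 ± 124.4 and 1940 ± 192.2 CPM (SD, n = 3 each). The log2 fold was 0.42 (SE 0.14, 95% interval 0.08 to 0.76; edgeR adjusted p = 0.307). Its p ranked 66 of 876.

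mmu-miR-185-3p, the opposite arm, had the larger fold. It had 17.5, 28.4 and 19.1 CPM in the WT libraries 1 to 3, from 320, 686 and 382 counts, against 42.8, 43.5 and 36.6 CPM in KO libraries 4 to 6, from 849, 788 and 955 counts. WT library 2 was again the highest and KO library 6 again the lowest of its genotype. The means were 21.7 ± 5.90 and 41.0 ± 3.81 CPM (SD, n = 3 each). The log2 fold was 0.92 (SE 0.24, 95% interval 0.34 to 1.49; edgeR adjusted p = 0.211), and its p ranked 29 of 876. Counting gives an error of at most 5.59% per library. No other listed miRNA averaging 100 counts or more stayed within 5% of the counts of any of the 8 arms in all libraries, so none of them shared its signal with a near-identical row.

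**Figure D2:**
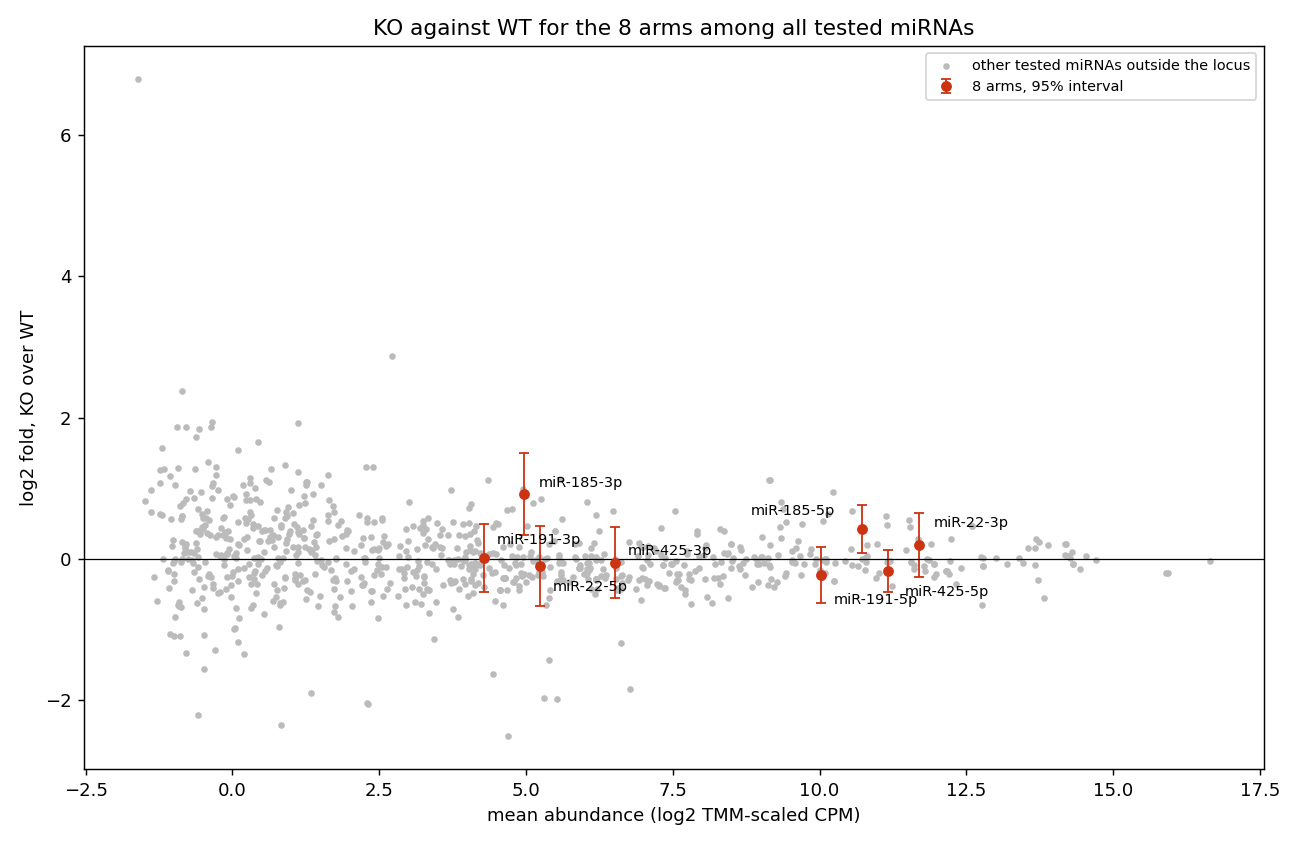
Log2 fold (KO over WT, vertical axis) by mean level (log2 CPM after TMM scaling, horizontal axis) of the 873 miRNAs tested outside the locus; grey points are other miRNAs and red points the 8 arms with 95% intervals. The intervals of miR-185-5p (0.08 to 0.76) and miR-185-3p (0.34 to 1.49) lie above 0 before adjustment for the number of miRNAs, and the other 6 include 0.

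Shares of the counts outside the locus use no TMM factor, but they are scaled by the total of those counts and shift with abundant miRNAs in it. miR-185-5p took 0.162% ± 0.0116 of these counts in WT and 0.221% ± 0.0304 in KO (SD, n = 3 each), and miR-185-3p 0.0024% ± 0.000583 and 0.00466% ± 0.000635, that is 1.37 and 1.94 times as much. With library totals as the only scaling the log2 folds were 0.78 and 1.28 and both arms were called (edgeR adjusted p = 0.0366 and 0.0342), along with 6.64% of miRNAs outside the locus, all of them higher in KO. Relative to the median of 0.34 under that scaling, the arms stood at 0.44 and 0.94. The log2 fold of miR-185-5p lay between 0.31 and 0.48, and that of miR-185-3p between 0.78 and 1.11, when any 1 library was left out. The unadjusted edgeR p of miR-185-5p was then 0.024 without KO library 6 and 0.081 to 0.185 otherwise. That of miR-185-3p was 0.0054 to 0.033. On all 6 libraries the unadjusted p of miR-185-5p was 0.0897 by DESeq2 and 0.026 by limma-voom. By edgeR it was 0.069 with RLE factors, 0.084 with the locus removed before scaling, 0.020 with upper-quartile factors and 0.047 with no filter.

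The level of miR-185-5p was also set against those of the other main arms within each library, a comparison chosen after the values were seen and not tested. There were 1.10, 1.34 and 1.498 counts of miR-185-5p per count of miR-191-5p in WT libraries 1 to 3 and 2.04, 2.26 and 1.80 in KO libraries 4 to 6. Per count of miR-425-5p the WT values were 0.541, 0.630 and 0.618, and the KO values 0.927, 0.960 and 0.792. Neither ratio overlapped between the genotypes. Because miR-191-5p and miR-425-5p kept a similar proportion, the 2 ratios are not separate observations. How often ratios between other miRNAs fail to overlap was not counted. Per count of miR-22-3p the WT values 0.580, 0.457 and 0.403 overlapped with the KO values 0.638, 0.505 and 0.516.

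In order of libraries the summed hepatocyte markers were at 34270, 56532 and 133080 CPM in WT and 42683, 49638 and 103310 CPM in KO. The genotypes overlapped. The part of these markers in the levels of miR-185 was not tested, apart from 1 fit with miR-122-5p as a covariate. That fit was tried only after seeing the data. Its log2 folds were 0.41 for miR-185-5p and 0.91 for miR-185-3p (edgeR adjusted p = 0.102 and 0.0993). It called 16 miRNAs outside the locus, against 4 without the covariate, so lower adjusted p-values were not particular to miR-185.

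The balance of arms was compared next. The hairpins are shown from 5′ to 3′ with the mature arms that RefSeq lists in capitals, because the main arm of miR-22 is the 3p strand while that of the other hairpins is the 5p strand.
Mir191: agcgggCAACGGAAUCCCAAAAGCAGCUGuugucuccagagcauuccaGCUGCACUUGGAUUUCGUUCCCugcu
Mir425: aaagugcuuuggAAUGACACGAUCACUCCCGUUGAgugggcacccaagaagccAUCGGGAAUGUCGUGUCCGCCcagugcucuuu
Mir22: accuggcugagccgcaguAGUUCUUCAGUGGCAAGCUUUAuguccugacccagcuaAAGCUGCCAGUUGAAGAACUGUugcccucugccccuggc
Mir185: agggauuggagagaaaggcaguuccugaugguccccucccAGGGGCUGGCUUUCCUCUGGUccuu
All 4 hairpins had a dominant arm. The opposite arm took 1.74% ± 0.364 of the reads of both arms for miR-191 in WT and 2.004% ± 0.393 in KO (SD, n = 3 each). For miR-425 it took 3.63% ± 0.474 and 3.95% ± 0.205, for miR-22 1.27% ± 0.191 and 1.01% ± 0.0773, and for miR-185 1.46% ± 0.266 and 2.07% ± 0.0206. These are more one-sided hairpins than most: their absolute log2 arm ratios ranked 56 to 93 of the 263 hairpins whose arms both averaged 10 counts or more, whose median was 3.22.

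None of the 4 arm ratios passed the test between KO and WT (limma trend test on the log2 ratio of 5p to 3p counts, adjusted over 263 hairpins, adjusted p under 0.05), and 0% of the 263 were called; 5.7% had an unadjusted p under 0.05. miR-185 had 79.9, 56.1 and 71.1 reads of the 5p arm per read of the 3p arm in WT libraries 1 to 3 and 47.0, 47.8 and 47.0 in KO libraries 4 to 6. The 3 KO ratios lay below all WT ratios; over the 263 hairpins 12.2% had ratios that did not overlap, in either direction. On the log2 scale the KO ratios of miR-185 had the smallest spread of the 263. They rest on 849, 788 and 955 counts of the 3p arm, and counting alone would spread them more widely. Their closeness is therefore no measure of a fixed arm balance in KO. The log2 ratio differed by -0.53 (SE 0.19, 95% interval -0.94 to -0.12; limma adjusted p = 0.725), the larger difference of the 3p arm already seen in its level.

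The other 3 hairpins had overlapping ratios. miR-191 had 65.7, 62.9 and 45.2 reads of 5p per read of 3p in WT and 58.7, 51.3 and 39.97 in KO (log2 change -0.21, SE 0.22; limma adjusted p = 0.945). WT library 3 and KO library 6, the libraries with the highest hepatocyte markers, had the lowest ratio of their genotype; the part of those cells in it was not tested. miR-425 had 24.7, 24.5 and 31.4 in WT and 24.4, 23.0 and 25.6 in KO (log2 change -0.13, SE 0.18; limma adjusted p = 0.945). In miR-425 the same libraries had instead the highest ratios. miR-22 had 69.6, 73.8 and 94.0 reads of 3p per read of 5p in WT and 100.2, 89.7 and 103.7 in KO (log2 change of 5p over 3p -0.32, SE 0.18, 95% interval -0.72 to 0.08; limma adjusted p = 0.80). The hairpins with the lowest p among the 263 were those of miR-328, let-7b, miR-6516 and miR-669l, with limma adjusted p of 0.518 to 0.725.

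**Figure D3:**
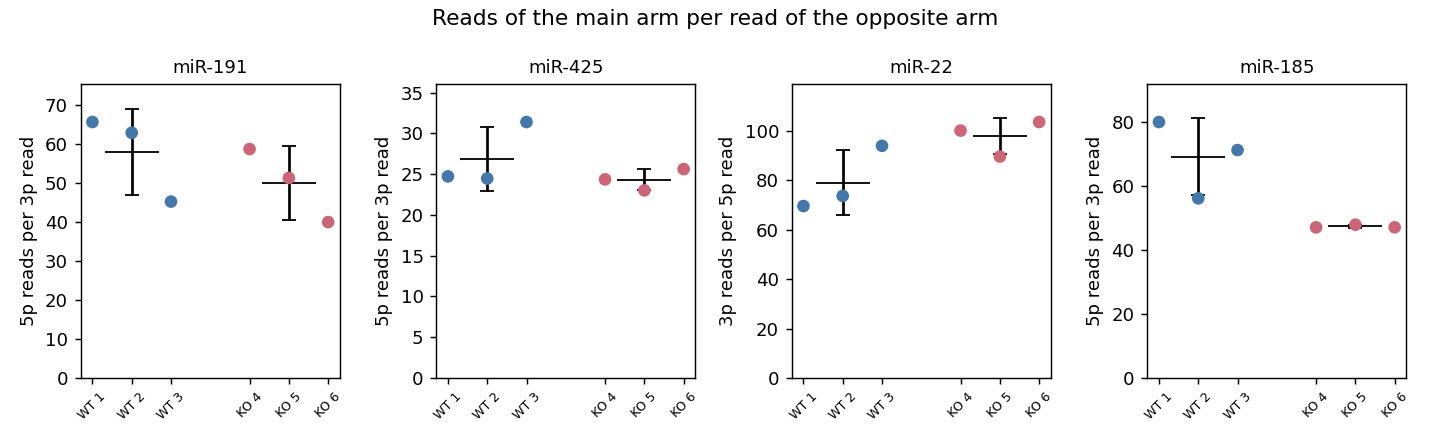
Reads of the main arm per read of the opposite arm (linear axes from 0) in each library for the 4 hairpins; blue points are WT, red points KO, and black bars the mean and SD. The KO ratios of miR-185 lie at 47.0 to 47.8, below WT ratios of 56.1 to 79.9, and the other 3 hairpins overlap.

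To find miRNAs whose pattern over the libraries was most like that of each main arm, the SD of the log2 ratio over the 6 libraries was ranked for 538 other miRNAs averaging 100 counts or more. Each library's values share its scaling factor, and the ranking is a description. A nearest miRNA is chosen for its likeness over all 6 libraries, so a similar pattern or fold largely follows from the choice. For both miR-191-5p and miR-425-5p the nearest was miR-378a-3p, a miRNA from an intron of Ppargc1b, with an SD of 0.05 for either. It had 5232, 5224 and 4127 CPM in the WT libraries 1 to 3, against 4428, 4184 and 4318 CPM in the KO libraries 4 to 6, so within WT it was lowest in library 3, as both 5p arms were. miR-378c and miR-378b followed, but their counts differed from those of miR-378a-3p by at most 0.093%, so the 3 are a single measured signal.

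miR-22-3p was nearest to miR-101a-3p (SD 0.07), at 285.8, 355.4 and 359.7 CPM in WT and 352.9, 445.6 and 358.6 CPM in KO, with the same low WT library 1 and high KO library 5. miR-101c was next with counts within 0.153% of miR-101a-3p, and then miR-21c (SD 0.13). miR-185-5p was nearest to miR-652-5p (SD 0.05), miR-186-5p (SD 0.06) and miR-1964-3p (SD 0.07). miR-186-5p, the abundant one of the 3, had 2424, 2818 and 2316 CPM in WT and 3410, 3954 and 3001 CPM in KO. Its log2 fold was 0.46 (SE 0.15, edgeR adjusted p = 0.299). Its values did not overlap, which is no separate finding because it was chosen for its likeness to miR-185-5p. The log2 folds of miR-652-5p and miR-1964-3p were 0.40 and 0.32, and none of these neighbours was called.

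**Figure D4:**
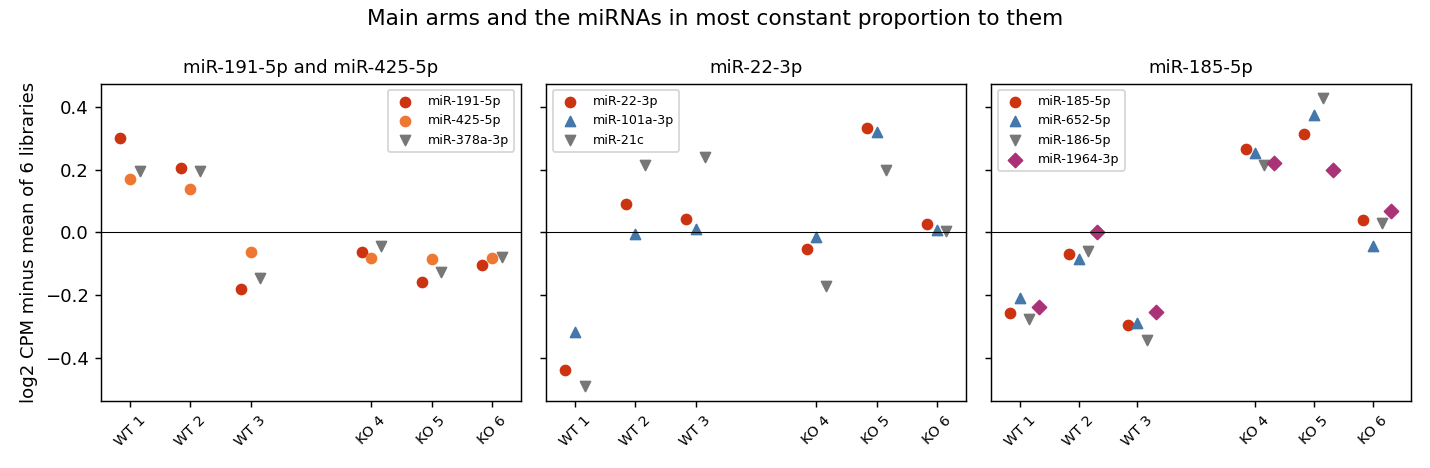
Log2 TMM-scaled CPM of each main arm (circles) and of the miRNAs nearest to it (other symbols) in each library, minus its mean over the 6 libraries. Within WT, miR-191-5p, miR-425-5p and miR-378a-3p are lowest in library 3. Over all 6 libraries miR-22-3p and miR-101a-3p are lowest in WT library 1 and miR-185-5p and its 3 neighbours lie lower in each WT library than in each KO library. The neighbours were chosen for this likeness.

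Outside the cluster of miR-191 and miR-425, the log2 ratios between main arms were less constant over the 6 libraries. The SD of the log2 ratio of miR-185-5p was 0.24 to miR-22-3p, 0.34 to miR-425-5p and 0.39 to miR-191-5p. Of the 538 SDs ranked for miR-185-5p, that to miR-22-3p was number 70 from the smallest. For miR-22-3p the SD was 0.34 to miR-425-5p and 0.42 to miR-191-5p. Each of these was over 2 times the SD of 0.09 within the cluster of miR-191 and miR-425.

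Among 31 other miRNAs reported in red cell formation, 30 were tested: the 3 of the deleted locus were called lower in KO, and of the 27 others 0 were called, with 8 folds above and 19 below 0 and a median log2 fold of -0.07. At an unadjusted p under 0.05 there were 4 of the 27, beside 11% of the 873 miRNAs. Named after their values were seen, they were miR-210-3p, miR-103-3p, miR-181a-5p and miR-107-3p. The counts of miR-107-3p and miR-103-3p differed by at most 0.152%, so they are a single measured signal. The 3 most abundant of the 27 were miR-16-5p, which restrains the cell cycle, the erythroid miR-486a-5p, and miR-21a-5p. Their mean WT levels of 104164 ± 18294, 67093 ± 20446 and 19577 ± 1153 CPM stood against KO levels of 102054 ± 5627, 58498 ± 10259 and 19805 ± 2338 CPM (SD, n = 3 each), differences within the spread between libraries. The log2 folds were -0.03, -0.20 and 0.02 with standard errors of 0.14, 0.25 and 0.12.

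**Figure D5:**
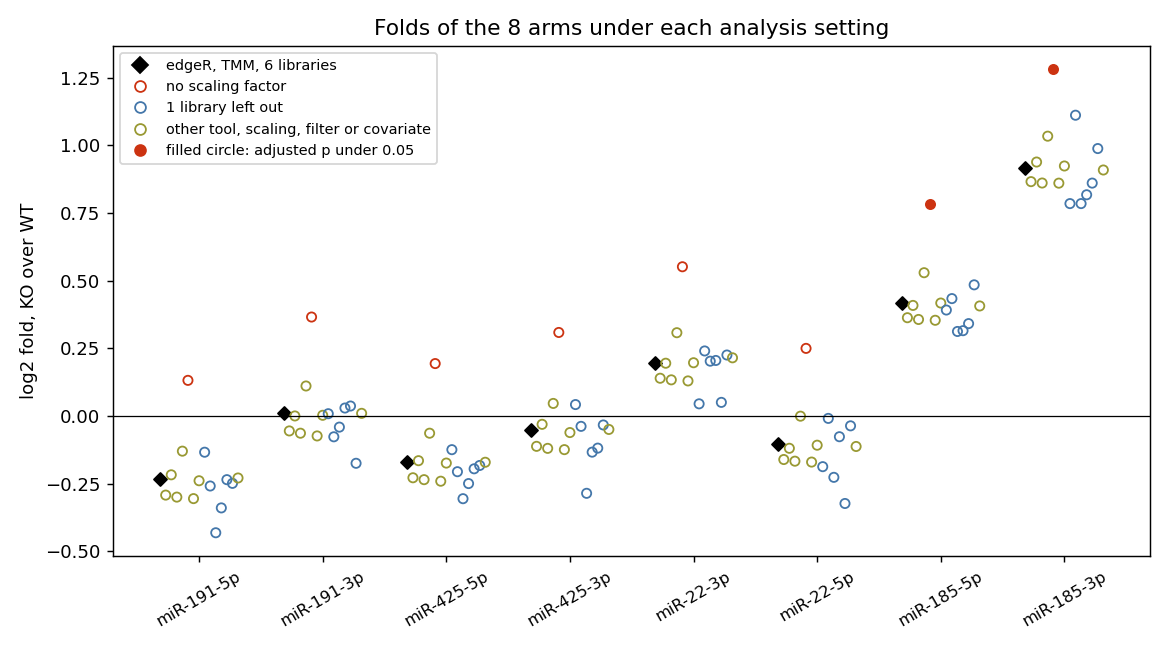
Log2 fold of KO over WT for the 8 arms under each analysis setting: black diamonds are the fit to all 6 libraries with TMM scaling, blue circles leave out 1 library, red circles use no scaling factor and olive circles another tool, scaling, filter or covariate; filled circles have an adjusted p under 0.05. The only filled circles are those of miR-185-5p (0.78) and miR-185-3p (1.28) with no scaling factor.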

How the data were processed

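Total RNA of fetal liver had been made into NEXTflex small RNA libraries and sequenced on a HiSeq2000, per the labels' protocols; the submitters' processing notes name cutadapt. The aligner, genome build, miRNA annotation and treatment of reads matching several miRNAs are not given in the sources used here. For each library the authors deposited raw counts per mature miRNA and percent columns that equal each count over the library's total count. Reads carry no molecular identifiers that the labels mention, so counting errors cover counting only.

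Counts were fitted over the whole table in R 4.3.3 with edgeR 4.0.16 (quasi-likelihood F-test, TMM scaling, filterByExpr), and p-values adjusted by Benjamini-Hochberg over all tested miRNAs. Standard errors are the absolute log2 fold over the square root of F, and 95% intervals use them with the test's degrees of freedom. The alternatives were limma-voom from limma 3.58.1, and DESeq2 1.42.0. Arm ratios were log2((5p + 1)/(3p + 1)), tested with limma's trend method where both arms averaged 10 counts or more. The edgeR and arm-ratio fits were also run on simulated counts, and no result here rests on that run. The simulated counts did not include the loss of the locus, so scaling under that loss was not tested by them. The miRNAs named were the 8 arms, the 3 miRNAs with the steadiest ratio to each main arm, the neighbours in level, the called and 3 most abundant outside the locus of the red cell list, and up to 4 hairpins of lowest p. The members and lists were chosen with earlier results of these data known.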

Additional observations from a re-analysis of the deposited data

How the results depend on the processing

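With 3 libraries per genotype the data left wide intervals: for the main arms a level in KO of 0.648 to 1.12 times that in WT (miR-191-5p) up to 1.05 to 1.69 times (miR-185-5p). The number of the 8 arms called was 0 under all settings tried (DESeq2, limma-voom, RLE, upper-quartile, locus removed before scaling, no filter, miR-122-5p as covariate and each library left out), except with no scaling factor, where it was 2. Over the same settings the number of miRNAs called outside the locus was 4 with TMM scaling, 12 by DESeq2, 5 by limma-voom, 1 with RLE or upper-quartile factors or the locus removed, 4 with no filter, 58 with no scaling factor, 16 with the covariate, and 0 (without KO library 5) or 1 with any other library left out. With no scaling factor, where the median of the miRNAs outside the locus was 0.34 in place of -0.01, the log2 folds turned positive for miR-191-5p (0.13), miR-425-5p (0.19), miR-425-3p (0.31) and miR-22-5p (0.25). The fold of miR-191-3p, 0.01 with TMM scaling, was 0.37 with no scaling factor and 0.11 with upper-quartile factors, turned to -0.055 with DESeq2, 0.00 with limma-voom, -0.064 with RLE factors and -0.074 with the locus removed, and lay between -0.17 and 0.037 with a library left out (-0.08, -0.04 and -0.17 without WT library 2, WT library 3 and KO library 6). That of miR-425-3p turned to 0.046 with upper-quartile factors and to 0.042 without WT library 1, and lay between -0.29 and 0.042 with a library left out. The causes were not tested. The arm ratios of the 4 hairpins kept their direction and stayed uncalled under both other pseudocounts (0.5 and 5), a minimum of 100 counts per arm and each library left out; for miR-185 the log2 change lay between -0.67 and -0.42. The log2 change of miR-191-5p over miR-425-5p lay between -0.13 and 0.00 with a library left out. It was -0.13 without WT library 3, where the ratios of the genotypes no longer overlapped. The exact permutation p was then 0.1, the smallest it can take. With any other library left out this p was 0.5 or more. No paired analysis was possible because the labels state no pairing of WT with KO libraries.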

Other observations

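The KO libraries agreed more closely with each other than the WT libraries did for 5 of the 8 arms, and for 334 of the 528 other miRNAs averaging 100 counts or more (63.3%), measured as the SD of log2 CPM within each genotype. For miR-191-5p the SD was 0.25 in WT and 0.05 in KO, and for miR-425-3p it was 0.33 and 0.08. The opposite held for miR-191-3p, at 0.05 in WT and 0.27 in KO. For miR-22-3p it was 0.29 and 0.20, and for miR-185-5p 0.12 and 0.15. No test of the difference in spread was run.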
